A study of Rattus norvegicus with 12 samples.

Results

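Ribosomal proteins and the factors that start and extend the peptide chain were measured in the lungs of normal and diabetic rats. The genes were taken by symbol: every gene named alone by at least 1 probe set of the RAE 230A array with a symbol starting with Rpl, Rps, Eif or Eef, without the Rps6k kinases. This gave 101 genes of the 10411 that the array names in this way, and 117 probe sets for them. They were 31 genes of the large ribosomal subunit, 14 of the small subunit, 46 initiation factors or their regulators and 10 elongation factors or their regulators. A gene with several probe sets was represented by the one with the highest mean log2 signal, a choice that did not use the groups.

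All 12 animals were male Wistar rats aged 12 weeks, and each array held lung RNA of 1 rat. The rats of both groups had fasted overnight before the lungs were taken. At 8 weeks of age 5 rats (normal) were injected intraperitoneally with buffer and 7 rats (diabetic) with streptozotocin, a toxin of the insulin-producing beta cell, so the diabetic rats had 4 weeks of diabetes. Streptozotocin diabetes is a model of insulin lack, in which an effect of the toxin itself and an effect of diabetes cannot be told apart. Whole lung holds airway, alveolar, vascular, connective tissue and blood cells, and neither ribosomes nor protein synthesis were measured.

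The ribosome joins a small subunit, which reads the messenger RNA, to a large subunit, which forms the peptide bond, and every cell type makes nearly the same set of proteins for both. Initiation factors bring the initiator tRNA and the mRNA cap to the small subunit, and elongation factors deliver each further tRNA and move the ribosome along. Insulin acts on this system through the kinase mTOR, which frees the cap-binding protein eIF4E from its 4E-binding proteins and favours translation of mRNAs that open with a run of pyrimidines, the terminal oligopyrimidine (TOP) motif. Those mRNAs include the ribosomal proteins and several elongation factors, and the control is known to act on their translation more than on their amount, which is what an array measures.

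The annotated transcript starts are shown for 7 of the members described below, and for 2 others that carry long pyrimidine runs (Rps23 and Rpl27a), because these are the bases in which the TOP motif lies. The sequences are from RefSeq on the rat build GRCr8. Each window runs 5′ to 3′ on the gene's strand, from 10 bases before the annotated start to 20 bases from it onwards, and the capitals mark the longest run of C and T in it.
Rps23, chr2:23814507-23814536, plus strand: ccttcctgCCTCTCTTCTCTCTTTCTCTCg
Rpl27a, chr1:172974563-172974592, plus strand: cttggtgggCTCCTCCCTCTTTCTTTTCTg
Rpl35a, chr11:81235002-81235031, minus strand: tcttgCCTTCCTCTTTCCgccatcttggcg
Rps28, chr7:15311314-15311343, minus strand: ccctgctcacgtgaCTCCTCTCCgctagat
Rps3, chr1:163195757-163195786, minus strand: TTCagcggcgcgcggcagcaagatggcggt
Eef1b2, chr9:72074081-72074110, plus strand: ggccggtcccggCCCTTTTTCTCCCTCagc
Eef1g, chr1:215289805-215289834, plus strand: CTgcggaatcaccatggcggctggggtaag
Eif5b, chr9:47718696-47718725, plus strand: tgtgCCCTgtcccagtgcgcgggtctgtgg
Eif3a, chr1:269919006-269919035, minus strand: aTCCggggctcgggcggcggcgctgccgcc

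Of the 101 members, 88 had an annotated start in the sequence table. A run of at least 8 pyrimidines stood in this window of 19 of 37 ribosomal protein genes (51.4%), 4 of 42 initiation factor genes (9.52%) and 3 of 9 elongation factor genes (33.3%), against 3601 of 33469 starts of all genes (10.8%). The windows of Rpl35a, Rps28 and Eef1b2 hold such a run and those of Rps3, Eef1g, Eif5b and Eif3a do not. Neither do the windows of the 2 annotated starts of Eif1a, where the longest runs are of 2 and 5 bases. An annotated start can lie some bases from the one used in lung, so a missing run says only that these letters were not in the window. In the 300 bases around the start, read on both strands, CCGGAAG stood in 9 of 37 ribosomal protein genes (24.3%) and 17 of 51 factor genes (33.3%), against 8.75% of all starts. AAGATGGC stood in 10.8% of the ribosomal protein genes and 7.84% of the factor genes, against 3.17% of all starts.

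The values were the array signals of the MAS5 software, each array scaled to a common trimmed mean (500.1 on every array), compared as log2 signals with limma. A log2 change is the mean of the diabetic rats minus the mean of the normal rats. Of the members, 96 passed the filter on dim probe sets, which kept signals above 170.0. The members under it were Eef1a2, a muscle and neuron form of elongation factor 1 alpha (signal 159 ± 17.9, SD, n = 5, in normal and 130.0 ± 27.3, n = 7, in diabetic lung), Rpl3l, a muscle form of RPL3 (14.4 ± 5.08 and 16.7 ± 13.0), Rpl30, Eef1akmt4 and the entry named Rpl-1. Sftpc and Scgb1a1, the surfactant and club cell genes that define lung, had mean signals of 25682 and 21761 in normal and 24347 and 21550 in diabetic lung, and 17 of 18 genes of muscle and other tissues lay under the filter.

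Some array measures go beside the results. The 3′ to 5′ signal ratio of GAPDH, which is higher where RNA is broken or copied incompletely, was 1.32 ± 0.0778 (SD, n = 5) in normal and 1.15 ± 0.0710 (n = 7) in diabetic lung (exact permutation test over the 792 splits, two-sided p = 0.00505). For beta-actin this ratio was 2.06 ± 0.437 and 2.08 ± 0.372 (exact permutation p = 0.920). The 3′ signal of GAPDH was 4337 ± 171 in normal and 3814 ± 375 in diabetic lung (exact permutation p = 0.0265). Diabetic rat 6 stood apart, with a GAPDH ratio of 1.30 against 1.10 to 1.17 in the other diabetic rats and a mean correlation of 0.948 with the other arrays of its group, where every other array had at least 0.963. The counts and class medians are therefore also given without this array.

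Messenger RNA levels of the translation machinery differed little between normal and diabetic lung. None of the 96 members passed an adjusted p of 0.05 (limma, Benjamini-Hochberg over 9520 probe sets), where 16 of all probe sets did (0.168%), and the smallest adjusted p of a member was 0.113, for Eif1a. At an unadjusted p under 0.05, 11 members were higher and 1 was lower in diabetic lung. This is 12.5% of the members against 16.4% of all probe sets tested. With both directions pooled, no more members passed than the background gives. By direction, 11 of the 96 members were higher, where 738 of 9520 probe sets (7.75%) were. In the other direction, 1 of the 96 members and 826 of the 9520 probe sets (8.68%) were lower. The share of higher members was thus above that of all probe sets, and the share of lower members below it. This difference by direction was not tested. The split of 11 higher and 1 lower became 11 and 4 after quantile normalisation and 15 and 0 after centring each array on its median. Without diabetic rat 6 it was 11 and 2. The median change of all probe sets was -0.01, or 0.02 after median centring. In tissue RNA, fewer cells of a type and less RNA per cell cannot be told apart, and because every array was scaled to the same mean, a change in total RNA per cell would not appear.

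The intervals were narrow enough to bound most members. The log2 changes ran from -0.24 (Rps4y2) to 0.53 (Eif1a), with a median of 0.01, 51 above 0 and 45 below. Of the 96 estimates, 95 lay within 1.25-fold. The 95% confidence interval lay within 1.25-fold for 65 members and within 1.5-fold for 93, the exceptions being Eif1a, Rps4y2 and Rpl39. The median size of the change was 0.092 for the members and 0.112 for all probe sets. The pooled SD within groups had a median of 0.138 on the log2 scale for the members (0.120 for ribosomal proteins and 0.148 for factors) and 0.187 for all probe sets. It was lowest for Eif3c, a subunit of the large scaffold factor eIF3, at 0.0493 and highest for Eif2ak2, the double-stranded RNA-activated kinase PKR, at 0.502.

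**Figure D1:**
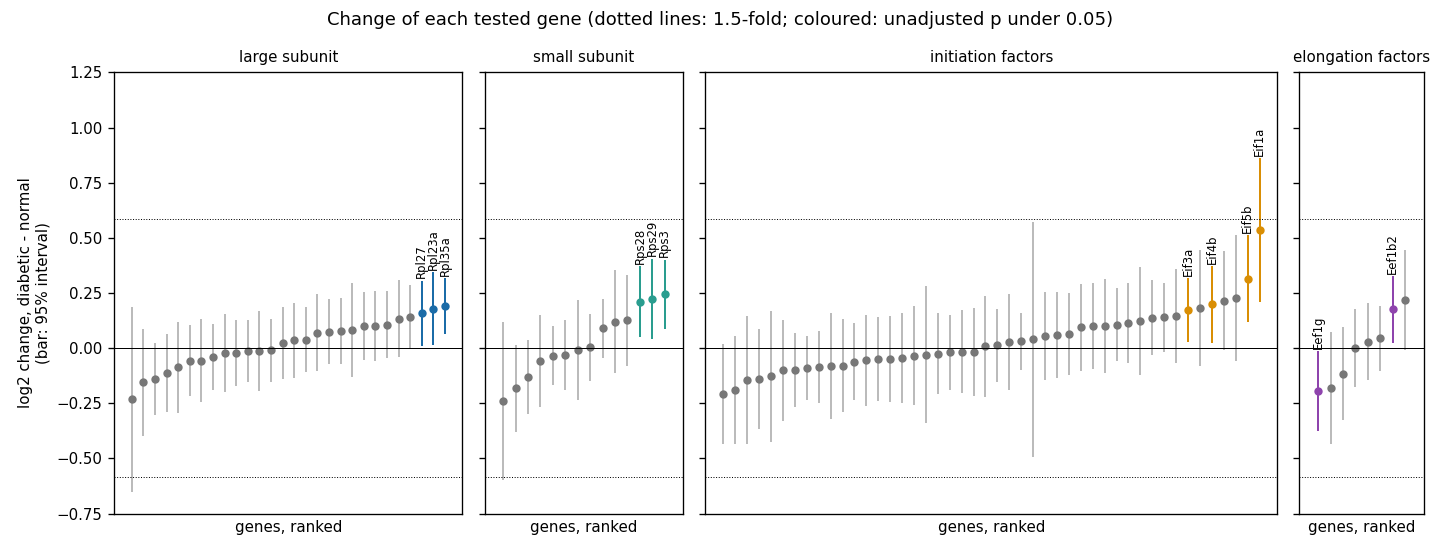
Log2 change (diabetic minus normal lung) of each tested member, ranked within its class, with each point 1 gene, the bar its 95% confidence interval and dotted lines at 1.5-fold. Coloured and named points have an unadjusted p under 0.05, the points of every class lie on both sides of 0, and Eif1a (0.53) is the only estimate beyond 1.25-fold.

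Among the 28 tested proteins of the large subunit, 3 passed an unadjusted p of 0.05 (10.7%, against 16.4% of all probe sets). All 3 were higher in diabetic lung. Of the 28, 15 lay above 0, with a median of 0.03 (0.01 without diabetic rat 6). Rpl35a, a protein of the large subunit, had signals of 8010.8, 8408.2, 8766.0, 7461.0 and 7684.7 in the normal rats and 8805.2 to 9675.8 (median 9211.7) in the diabetic rats. All 7 diabetic rats lay above all 5 normal rats, which was so for 0.924% of all probe sets (1.11% had all diabetic rats below). The change was 0.19 (SE 0.06, 95% confidence interval 0.07 to 0.31, adjusted p = 0.134 in limma).

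Rpl23a, which lies near the exit of the peptide tunnel, and Rpl27 were the other 2. The signal of Rpl23a was 5073.7, 4477.9, 4499.1, 5024.4 and 4836.4 in normal and 4907.0 to 6530.0 (median 5427.0) in diabetic lung, with 4 diabetic rats above every normal rat (0.18, SE 0.08, adjusted p = 0.257 in limma). That of Rpl27 was 7006.0, 6890.6, 7169.8, 7691.3 and 7209.2 in normal and 7479.3 to 9437.3 (median 7715.0) in diabetic lung, again with 4 of 7 above the normal range (0.16, SE 0.07, adjusted p = 0.265). Both groups overlapped for these genes. The unadjusted p was above 0.05 for Rpl23a without normal rat 2 (0.0794), normal rat 3 (0.0761) or diabetic rat 1 (0.0530), and for Rpl27 without any 1 of normal rats 1, 2, 3 and 5 and diabetic rats 2, 5 and 6 (0.0505 to 0.0781).

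Other proteins of the large subunit with known roles outside peptide bond formation had intervals that include 0. Rpl5 and Rpl11 form with 5S rRNA the particle that binds the p53 regulator MDM2. Their changes were 0.07 (95% confidence interval -0.10 to 0.24) and 0.02 (-0.14 to 0.18). Rpl22 gave -0.06 (-0.24 to 0.13), Rpl3, which lies at the peptidyl transferase centre, by 0.08 (-0.13 to 0.29), and the stalk base protein Rplp0, often used as a reference gene, by -0.06 (-0.21 to 0.10). Rpl39 had the lowest estimate of the subunit at -0.23, with an interval of -0.65 to 0.18. Its signals were 521.2, 438.7, 449.8, 475.5 and 483.2 in normal and 193.9 to 549.4 (median 438.2) in diabetic lung, so the diabetic rats reached both below and above the normal range.

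Of the 14 proteins of the small subunit, 3 passed an unadjusted p of 0.05, again all higher. This is 21.4%, against 16.4% of all probe sets, and rests on few genes. Of the 14, 7 lay above 0 and the median was -0.00 (-0.04 without diabetic rat 6). Rps3, which lies at the mRNA entry and also takes part in DNA repair, had signals of 9846.7, 8724.4, 10080.6, 7767.0 and 9397.7 in normal and 9963.6 to 11889.0 (median 10726.9) in diabetic lung. Of the diabetic rats 6 lay above every normal rat, and the change was 0.24 (SE 0.07, 95% confidence interval 0.09 to 0.40, adjusted p = 0.123 in limma).

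Rps28 and Rps29, small proteins of the head of the small subunit, had the same direction. The signal of Rps28 was 7252.8, 6785.1, 6914.5, 7595.1 and 6543.6 in normal and 7380.8 to 9676.0 (median 7968.1) in diabetic lung, with 5 of 7 above the normal range (0.21, SE 0.07, adjusted p = 0.186 in limma). That of Rps29 was 16497.6, 17760.1, 17967.6, 15855.8 and 16603.5 in normal and 16226.1 to 24247.0 (median 19606.1) in diabetic lung, with 6 of 7 above it (0.22, SE 0.08, adjusted p = 0.203). Rps6, the substrate of the S6 kinases, had signals of 13642.8, 13053.3, 12339.6, 15654.6 and 17555.3 in normal and 12388.0 to 17080.6 (median 13202.9) in diabetic lung. No diabetic rat lay outside the normal range for Rps6, and its change was -0.06 (-0.26 to 0.15). Rpsa, which is also known as a laminin receptor, gave -0.13 (-0.30 to 0.03) and Rps27l, a p53 target, by 0.12 (-0.11 to 0.35).

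**Figure D2:**
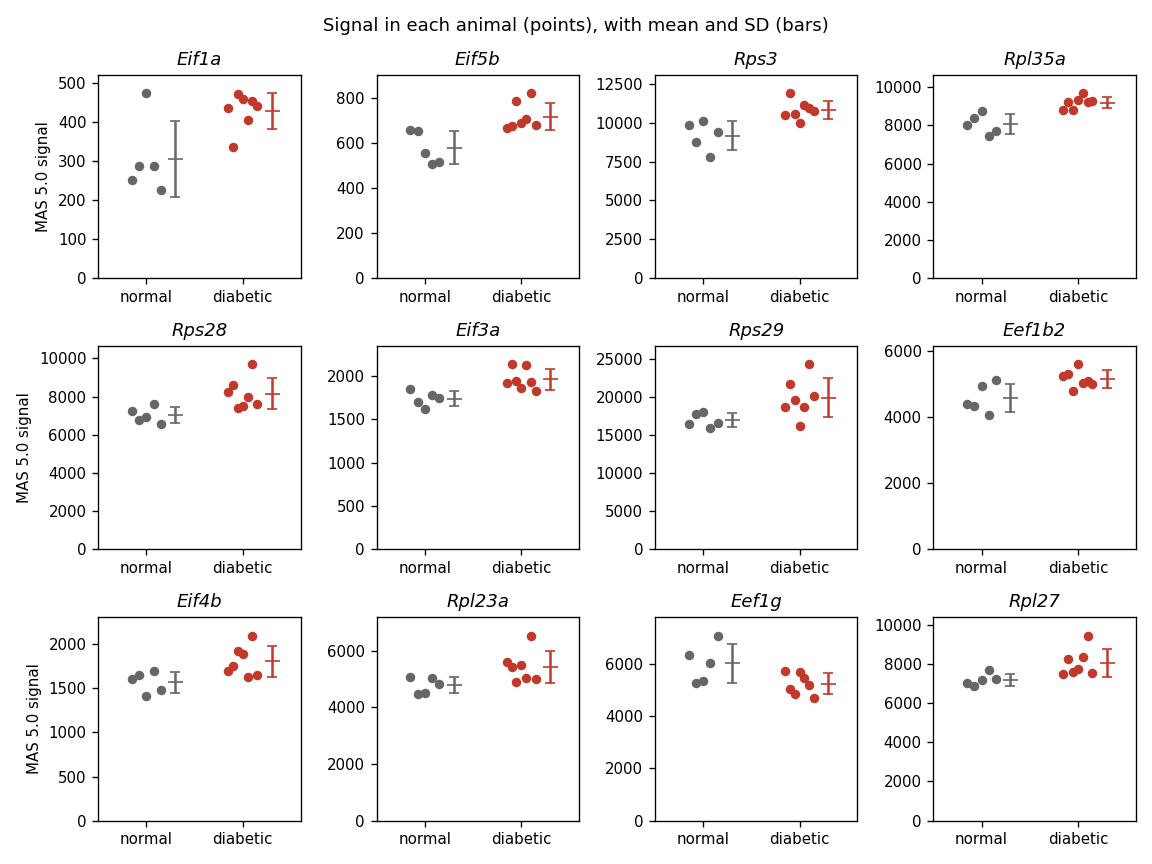
MAS5 signal in each rat for the 12 members at an unadjusted p under 0.05, on axes that start at 0, with each point 1 rat (5 normal in grey, 7 diabetic in red) and bars giving the mean and SD. The groups separate fully for Eif5b and Rpl35a and overlap for the others.

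Of the 46 initiation factors and regulators, 4 passed an unadjusted p of 0.05, all of them higher (8.70%, against 16.4% of all probe sets). Of the 46, 24 lay above 0, and the median was 0.01 (-0.01 without diabetic rat 6). Eif1a, which helps the small subunit scan for the start codon, had the largest estimate of all members. Its signals were 249.7, 287.8, 472.6, 286.0 and 226.4 in the normal rats and 335.2 to 471.8 (median 440.3) in the diabetic rats, so normal rat 3 lay above all 7 diabetic rats and the other 4 normal rats below all of them. The change was 0.53 (SE 0.15, 95% confidence interval 0.21 to 0.86, adjusted p = 0.113 in limma). Without normal rat 3 it was 0.71, with an adjusted p of 0.0424, and this was the only leave-one-out fit in which a member passed the adjusted threshold.

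Eif5b, the GTPase that joins the subunits at the end of initiation, had signals of 655.0, 652.6, 555.6, 506.9 and 515.5 in normal and 667.0 to 818.7 (median 686.1) in diabetic lung. All 7 diabetic rats lay above all normal rats, and the change was 0.32 (SE 0.09, 95% confidence interval 0.12 to 0.51, adjusted p = 0.116 in limma). Eif5b and Rpl35a were the only members of 96 whose groups did not overlap, against 2.04% of all probe sets.

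Eif3a, the largest subunit of eIF3, and Eif4b, a helper of the helicase eIF4A and a target of the S6 kinases, were the other 2. The signal of Eif3a was 1849.2, 1704.8, 1625.8, 1783.1 and 1748.3 in normal and 1833.5 to 2135.4 (median 1931.9) in diabetic lung, with 6 of 7 above the normal range (0.17, SE 0.07, adjusted p = 0.203 in limma). That of Eif4b was 1608.4, 1652.1, 1416.8, 1702.4 and 1479.8 in normal and 1629.0 to 2099.5 (median 1760.0) in diabetic lung, with 4 of 7 above it (0.20, SE 0.08, adjusted p = 0.229). A second probe set of Eif4b gave 0.18. The unadjusted p was above 0.05 for Eif3a without normal rat 3 (0.0538) and for Eif4b without normal rat 3 (0.0745) or 5 (0.0556).

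Taken by complex, the 11 subunits of eIF3 had a median of 0.03, and the interval of each lay within 1.25-fold. The 3 subunits of eIF2, which carries the initiator tRNA, all lay below 0, with a median of -0.03, and Eif2s1, the subunit that stress kinases phosphorylate, gave -0.03 (-0.26 to 0.19). The 5 subunits of eIF2B, the exchange factor that recharges eIF2, had a median of -0.10 and its catalytic subunit Eif2b5 a change of 0.03 (-0.19 to 0.24). None of the 4 kinases of eIF2 passed an unadjusted p of 0.05. They were the heme-sensing Eif2ak1 (0.12, -0.12 to 0.37), Eif2ak2 (0.04, -0.49 to 0.57), the endoplasmic reticulum stress kinase Eif2ak3 (-0.14, -0.36 to 0.08) and the amino acid sensor Eif2ak4 (0.18, -0.08 to 0.44).

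The cap-binding machinery, through which insulin acts, showed no member past the threshold but Eif4b. The 11 genes whose symbols name eIF4A, 4B, 4E, 4G or 4H, a grouping by symbol alone, had a median of 0.01. Eif4e, which binds the cap, had signals of 1512.5, 1460.8, 1197.4, 947.2 and 1332.5 in normal and 1075.5 to 1788.2 (median 1594.7) in diabetic lung (0.23, 95% confidence interval -0.05 to 0.51), while its dimmer probe set gave -0.35. Eif4ebp1, the 4E-binding protein that mTOR phosphorylates, had signals of 562.8, 560.8, 487.7, 630.9 and 622.2 in normal and 385.9 to 598.9 (median 501.8) in diabetic lung, with 2 diabetic rats below the normal range (-0.19, -0.43 to 0.05). Eif4ebp2 gave -0.03 (-0.21 to 0.15) and Eif4ebp3 -0.03 (-0.34 to 0.28). The scaffold Eif4g1 gave -0.05 (-0.25 to 0.15) and the helicases Eif4a1 and Eif4a2 by -0.08 (-0.29 to 0.13) and 0.14 (-0.03 to 0.30). Eif6, which keeps the subunits apart, gave -0.02 (-0.18 to 0.15).

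Of the 8 elongation factor genes tested, 2 passed an unadjusted p of 0.05, 1 higher and 1 lower. This is 25.0%, against 16.4% of all probe sets, and rests on few genes. The median of the 8 was 0.01 (-0.04 without diabetic rat 6). Both genes that passed belong to eEF1B, the complex that recharges elongation factor 1 alpha with GTP. Eef1b2, a subunit that exchanges the nucleotide, had signals of 4398.4, 4340.2, 4923.1, 4064.6 and 5110.6 in normal and 4768.5 to 5582.9 (median 5088.6) in diabetic lung (0.18, SE 0.07, adjusted p = 0.222 in limma). Eef1g, the structural gamma subunit, had 6343.2, 5272.5, 5363.2, 6038.0 and 7082.6 in normal and 4710.9 to 5747.9 (median 5200.6) in diabetic lung (-0.19, SE 0.08, adjusted p = 0.262). Thus 3 diabetic rats lay above the normal range for Eef1b2 and 4 below it for Eef1g. Without normal rat 2 or 4 the unadjusted p of Eef1b2 was 0.0570 or 0.0740, and that of Eef1g was 0.0549 to 0.115 without any 1 of normal rats 1, 4 and 5 and diabetic rats 2, 3 and 7.

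Eef1a1, which delivers the tRNA, had signals of 20953.2, 19746.0, 18978.8, 21174.2 and 20134.6 in normal and 18088.6 to 25692.8 (median 20319.9) in diabetic lung, a change of 0.03 (-0.14 to 0.20). Its second probe set gave 0.14. Eef2, which moves the ribosome, gave 0.04 (-0.10 to 0.19). Eef2k, the kinase that inhibits Eef2, had signals of 499.5, 430.3, 404.4, 478.1 and 569.5 in normal and 453.3 to 641.7 (median 549.2) in diabetic lung. Of the diabetic rats 3 lay above the normal range, and the change of 0.22 (-0.01 to 0.44) did not pass an unadjusted p of 0.05.

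**Figure D3:**
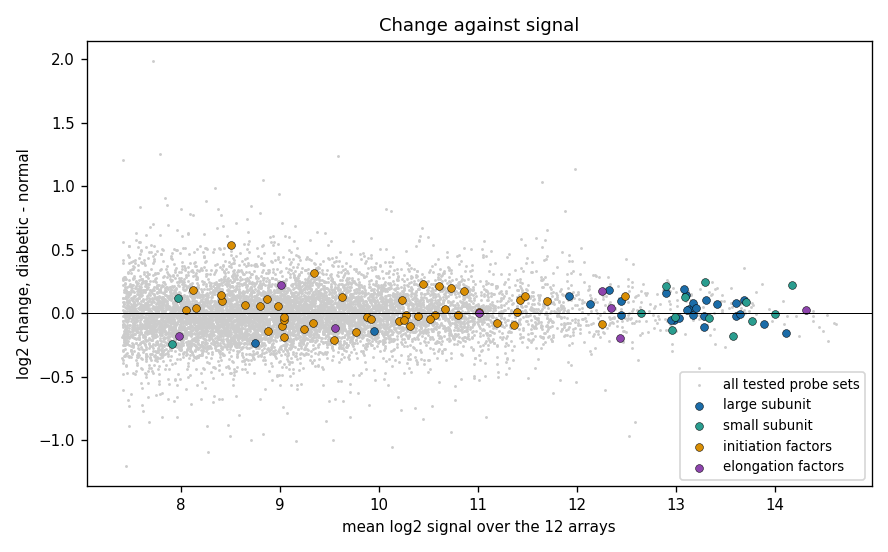
Log2 change (diabetic minus normal lung) against mean log2 signal for the tested members, coloured by class, over all 9520 tested probe sets in grey. The members lie between -0.24 and 0.53, and Eif1a has the largest estimate.

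In some animals, but not in all, most ribosomal proteins lay on the same side of the normal mean. This was not compared with other probe sets. The mean of the 42 tested ribosomal proteins, relative to the normal mean, ran from -0.06 to 0.05 in normal and from -0.07 to 0.18 in diabetic lung (log2). Diabetic rat 6 was the highest. In it 39 of the 42 proteins lay above the normal mean, and in diabetic rat 2 there were 37, but in diabetic rats 3 and 4 there were 12 and 14. In diabetic rats 1, 5 and 7 there were 18, 24 and 20. Among the normal rats these counts ran from 10 (rat 2) to 30 (rat 4). Of the 42 proteins, 21 had their highest signal of all 12 rats in diabetic rat 6, and of the 46 initiation factors 17 did. The lowest signal was in diabetic rat 6 for 1 of the 42 and 6 of the 46, and in diabetic rat 5 for 10 of the 46. The share of all probe sets that were highest in diabetic rat 6 was not counted. Whether these counts are particular to the members therefore cannot be told. The initiation factors together ran from -0.05 to 0.04 in normal and from -0.07 (rat 5) to 0.08 in diabetic lung, and the elongation factors from -0.09 to 0.09 and from -0.07 to 0.09.

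**Figure D4:**
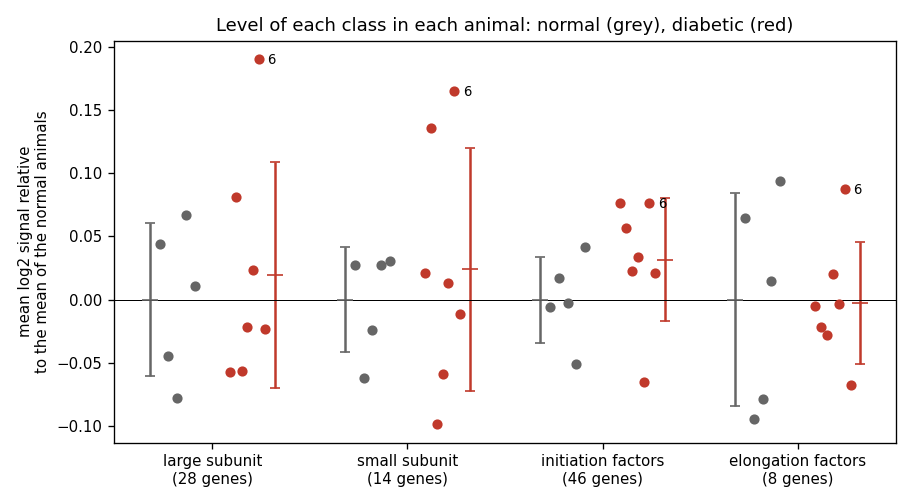
Mean log2 signal of each class in each rat, relative to the mean of the 5 normal rats, with normal rats in grey, diabetic rats in red and bars giving the group mean and SD. Normal and diabetic points overlap in all 4 classes, and diabetic rat 6, marked by its number, is the highest for the large (0.19) and the small (0.17) subunit.

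The GAPDH ratio moved with the groups, and the estimates changed when it was entered in the fit. With this covariate, Eif4b (0.45, adjusted p = 0.0274 in limma), Rps28 (0.41, adjusted p = 0.0373) and Rpl5 (0.35, adjusted p = 0.0477) passed the adjusted threshold. These 3 of 96 members stand beside 288 of 9520 probe sets (3.03%) that passed in this fit, a like share. The class medians were 0.18 for the large subunit, 0.11 for the small subunit, 0.01 for initiation and 0.09 for elongation factors. At an unadjusted p under 0.05, 23 members were higher and 1 lower, where 19.3% of all probe sets passed. Of the 12 members that passed without the covariate 6 still passed, and Eif1a, Rps3, Rpl35a, Eif3a, Eef1b2 and Eef1g did not. The sign of 29 of the 96 changes differed from that without the covariate. With the covariate and without diabetic rat 6, whose ratio lay in the normal range, 0 members and 0 of all probe sets passed an adjusted p of 0.05. At the unadjusted threshold 2 members were higher and 1 was lower, where 7.99% of all probe sets passed, and the sign of 34 of the 96 changes differed from the fit of all rats without the covariate. The class medians were then 0.10 (large subunit), 0.06 (small subunit), -0.03 (initiation) and 0.03 (elongation). In that fit the other 6 diabetic rats all had lower ratios than every normal rat, so ratio and group cannot be told apart, and the part of RNA quality in the changes was not tested.

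**Figure D5:**
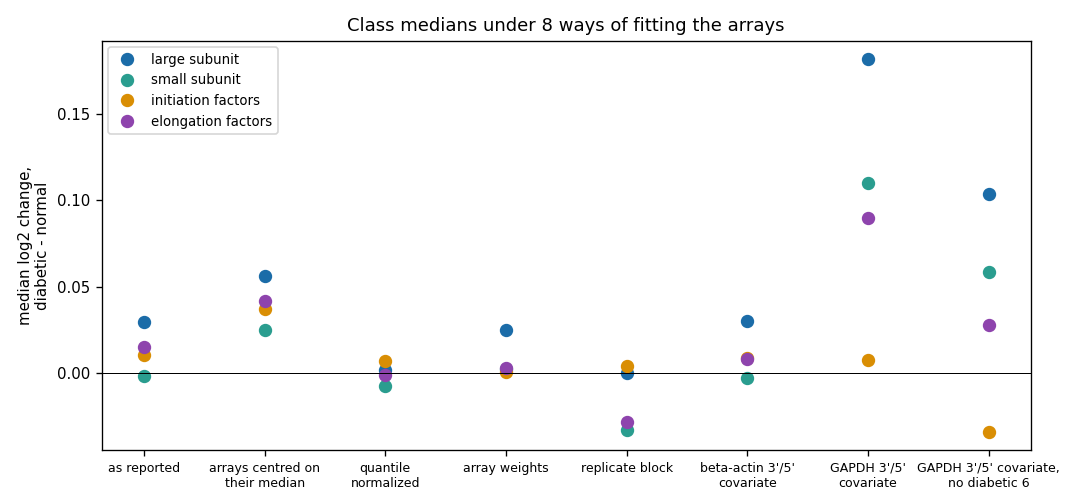
Median log2 change (diabetic minus normal lung) of each class as reported and under 7 other ways of fitting the arrays, with each point 1 class. With the GAPDH ratio as a covariate the medians of the large (0.18) and small (0.11) subunit and the elongation factors (0.09) are the highest of these settings, and that of the initiation factors (0.01) is not.

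Several members had more than 1 probe set. Among the 10 with several tested probe sets, all directions matched in 5 and differed in 5, and no gene with differing directions had an unadjusted p under 0.05 on any of them. The brightest probe set of Rps24 gave -0.03 and its dim one 0.25, those of Eif2ak1 gave 0.12 and -0.11, those of Rpl7l1 -0.14 and 0.07, and the 3 of Rpsa gave -0.13, -0.05 and 0.12. Ribosomal protein genes have many processed pseudogenes, and some probe sets can bind near-identical transcripts, so the gene behind such a signal is uncertain.

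Genes of neighbouring steps were read from lists in the same fit, and none of their genes passed an adjusted p of 0.05. The mitochondrial ribosome is a separate ribosome with its own proteins, and most of these lay below 0. At the unadjusted threshold, 2 of 69 tested genes were higher and 11 lower (18.8%, against 16.4% of all probe sets, 7.75% higher and 8.68% lower). Of the 69, 18 lay above 0 and 51 below, with a median of -0.08. Of all 9520 tested probe sets, 5030 lay below 0. The genes past the threshold included Mrpl14 (-0.46), Mrpl17 (-0.35) and Mrpl3 (-0.26), while Mrpl1 was higher (0.35). The signal of Mrpl14 was 469.4, 450.5, 359.3, 474.7 and 502.3 in normal and 227.9 to 403.7 (median 363.4) in diabetic lung. Of the 42 tested cytosolic ribosomal proteins, 6 were higher and 0 lower (14.3%), 22 lay above 0 and 20 below, and the median was 0.01. The difference between the lists was not tested. The 4 mitochondrial translation factors had 0 in either direction and a median of -0.05, with Tufm at -0.12.

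Cytosolic aminoacyl-tRNA synthetases and their partners load tRNAs with amino acids. Of the 21 tested, 0 were higher and 2 lower (9.52%, against 16.4% of all probe sets), with a median of -0.05. This list includes Eef1e1, which is also counted among the members. The genes of smallest p in it were Tars1 (-0.30), Aars1 (-0.28), Wars1 (-0.22) and Aimp2 (-0.17). The 12 genes of peptide release, ribosome recycling and poly(A) binding had 0 in either direction. Of 36 nucleolar genes of ribosome assembly, 3 were higher and 1 lower (11.1%), with a median of 0.01. Nucleolin (Ncl), which binds nascent rRNA, had signals of 1484.6, 1987.5, 1952.2, 1494.5 and 1862.2 in normal and 1982.7 to 2308.8 (median 2097.8) in diabetic lung, a change of 0.29. Ddx21 (0.24) and Gnl2 (0.32) were higher and Lsg1 (-0.28) was lower. Of the 8 other mRNAs known to carry a TOP motif, 3 were higher and 1 lower (50%, against 16.4% of all probe sets, 7.75% higher and 8.68% lower). This share rests on few genes. Gas5, a noncoding host of small nucleolar RNAs, had signals of 530.8, 815.0, 563.8, 678.0 and 630.1 in normal and 737.2 to 1022.3 (median 844.4) in diabetic lung (0.41), Vim gave 0.20, Nap1l1 0.17 and Hnrnpa1 -0.23.

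Upstream, 8 of 35 tested genes of the mTOR and S6 kinase pathway passed an unadjusted p of 0.05, 4 higher and 4 lower. This is 22.9% of the list, against 16.4% of all probe sets. Tsc1, a subunit of the complex that restrains mTOR, had signals of 345.3, 433.1, 430.2, 359.2 and 323.0 in normal and 442.0 to 539.5 (median 473.3) in diabetic lung. Its groups did not overlap, and the change was 0.37 (adjusted p = 0.0926 in limma). Rps6ka2 (-0.48), Mknk1 (-0.27), a kinase of eIF4E, and Lamtor4 (-0.24), of the complex that brings mTOR to the lysosome, were lower, and Mtor (-0.01) and Rps6kb1 (0.03) were near 0. The integrated stress response is the programme that follows phosphorylation of eIF2. Of its 18 tested genes, 4 were higher and 0 lower (22.2%, against 16.4% of all probe sets, 7.75% higher and 8.68% lower). The 4 were Trib3 (0.48), Nupr1 (0.39), Psat1 (0.32) and Cebpg (0.22). Trib3 had signals of 248.6, 223.7, 254.6, 317.2 and 201.1 in normal and 233.6 to 448.3 (median 338.0) in diabetic lung, with 5 of 7 above the normal range.

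Markers of cell types are given beside these values. At the same unadjusted threshold, which 16.4% of all probe sets passed, 2 of 16 tested fibroblast genes were higher and 10 lower. Each summed signal given here covers all genes of its list with a probe set, also those under the filter. For the fibroblast list it was 47229 to 50533 in normal and 34144 to 47332 in diabetic lung. Of 12 tested lymphocyte genes 0 were higher and 2 lower (16.7%), with sums of 16812 to 19733 and 10880 to 19681, and Cd2, Cd3e, Cd52, Cd8b and Il7r lay under the filter. Of 9 macrophage genes 2 were higher and 0 lower (28453 to 37062 and 29828 to 38210), of 13 endothelial genes 0 were higher and 3 lower (37067 to 41804 and 34527 to 42018), and of 3 erythroid genes 0 were higher and 1 lower (22679 to 31918 and 19624 to 28060). The sums of these 5 lists overlapped between the groups. Of the 8 genes in the list that defines lung, 1 was higher and 2 lower (37.5%), with 2 above 0 and 6 below. Among them the alveolar type 1 genes Aqp5 (-0.52) and Ager (-0.24) were lower, Slc34a2 of type 2 cells was 0.17 and Sftpc was -0.08. Of 11 tested cell cycle genes, 0 passed in either direction, and the other 15 of the list, Mki67, Top2a and Cdk1 among them, lay under the filter. The part of cell composition in the changes of the members was not tested.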

How the data were processed

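Lung RNA of 12 rats, 5 normal and 7 diabetic, was hybridised to 12 arrays, 1 rat each. The deposited values were MAS5 signal intensities, which the authors had scaled per array, as the trimmed means (500.1) show. Values at or below 0 (1 value) were set to 0.1 and log2 taken. The 57 control probe sets were dropped, and so were the dimmest 40% by mean log2 signal over all arrays, leaving 9520 of 15923 probe sets. Of all probe sets 12783 named 1 gene, 312 several and 2771 none, and 99 of 101 members matched the reference gene table by identifier (Rpl37a and Rps9 kept the annotation's symbol). The 38 probe sets that name several genes of these families were outside the rule.

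Groups were compared on log2 values with limma 3.58.1 (lmFit, eBayes with trend) in R 4.3.3, two-sided, in place of the study's Bayesian analysis of variance, with Benjamini-Hochberg adjustment over 9520 probe sets. The fit was tested on simulated data. Array measures were compared by exact permutation tests. Named were members past an adjusted p of 0.05, up to 5 in each class and direction of smallest p under an unadjusted 0.05, a list of members named whatever their values, and the 4 smallest p of every other list. Members and lists were chosen with earlier results of these data known. Rpl22l1 and Rps27, on that list, are not analysed here. Separate rats are the replicates; the number of arrays limits the precision. Alternatives were other scalings, filters, a pseudocount, other variance models, array weights, 2 covariates, the mean over probe sets, the replicate number as a block and leaving out each rat.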

Additional observations from a re-analysis of the deposited data

Results flagged for a closer look

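Of 100 groups of values examined for a sample far from the rest of its group, 8 were picked out, where chance gives about 1 in 20. The signal of Eef2 was 6187.4 in diabetic rat 6 (next 5415.3) and that of Rpl5 was 13892.8 in the same rat (next 11716.5). Eif4a2 was 6685.1 in normal rat 5, where the other 4 normal rats ran from 5162.8 to 5204.4. Rpl3l, under the filter, was 45.8 in diabetic rat 5 (next 14.3). The mean of the initiation factors in diabetic rat 5 lay 0.065 below the normal mean on the log2 scale (-0.0650), with the next diabetic rat at 0.02. Among the array measures, diabetic rat 6 had a GAPDH 3′ to 5′ ratio of 1.30 (next 1.17) and a mean correlation with its group of 0.948 (next 0.963), and diabetic rat 5 had a 5S rRNA control signal of 915.5 (next 349.2).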

How the results depend on the processing

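At an adjusted p of 0.05 the count of members was 0 under every alternative but the GAPDH covariate (3 higher) and the fit without normal rat 3 (1 higher, Eif1a), so leaving out each rat gave 0 to 1 higher and 0 to 0 lower. At an unadjusted p under 0.05, leaving out each rat gave 7 (without normal rat 3) to 13 higher and 0 to 2 lower. The 11 higher became 23 with the GAPDH covariate, 2 with that covariate and without diabetic rat 6 (an alternative added after seeing the data), and 4 at a threshold of 0.01. The share of all probe sets that passed moved with them, from 16.4% to 19.3% and 7.99% in the 2 covariate fits. The 1 lower became 0 with median centring or that threshold, 4 with quantile normalisation and 3 with the beta-actin covariate. The GAPDH covariate gave class medians of 0.18 (large subunit), 0.11 (small subunit) and 0.0898 (elongation), and without diabetic rat 6 0.10, 0.06 and 0.03, with -0.0342 for initiation factors. In that last fit 34 of the 96 members had another sign, and among those that had passed an unadjusted p of 0.05 Eef1b2 (-0.13), Rpl35a (-0.0027) and Rps3 (-0.0522) changed sign. Over the rats left out, the medians ran from 0.00 to 0.05 (large subunit), -0.04 to 0.04 (small subunit), -0.01 to 0.03 (initiation) and -0.04 to 0.03 (elongation). Eif1a, Eif5b, Rps3, Rpl35a, Rps28 and Rps29 kept an unadjusted p under 0.05 in every leave-one-out fit, but with the GAPDH covariate Eif1a, Rps3 and Rpl35a did not, and 6 of the 12 members that passed were kept. Rats of the same number did not deviate together (correlations -0.12 to 0.04, and 1 of 5 correlated best with its own number). With the replicate number as a block, 6 members were higher and 1 lower, and 5 of the 12 were kept (Eif1a, Eif5b, Eif3a, Rps3 and Rpl35a). The causes of these shifts were not tested. Signals at or under the filter of 170.0 limit what can be said of Eef1a2, Rpl3l, Rpl30, Eef1akmt4 and Rpl-1. Choosing the members by current symbol gave the same 101 genes.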

Other observations

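Besides the members, 38 probe sets named several genes of the same families at once, and all passed the filter on dim probe sets. At an unadjusted p under 0.05 (limma), 3 were higher and 0 lower in diabetic lung (7.89%, against 16.4% of all probe sets). Of the 38, 31 lay above 0, where 4490 of all 9520 tested probe sets did. Their log2 changes had a median of 0.07 for the 38 and a range from -0.09 to 0.31. The gene behind each of these signals cannot be told apart from the others that the probe set names.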
